A study of Homo sapiens with 36 samples.

Results

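Cyclin E, cyclin A and their kinase CDK2 were followed at the RNA level in LNCaP cells (an established line from human prostate cancer) after treatment with inhibitors of CDK4. The genes were chosen by symbol, with earlier results of these data known: CDK2, its cyclins CCNE1 (cyclin E1), CCNE2 (cyclin E2) and CCNA2 (cyclin A2), and CDC25A, the phosphatase that activates CDK2. All 5 were among the 29872 genes of the deposited table and all 5 passed the filter on low values. The cells received vehicle, AU2-94 or atirmociclib, which are CDK4-selective inhibitors, at 1 or 2 µM, or ribociclib, an inhibitor of CDK4 and CDK6, at 2 µM. In the authors' kinase assays atirmociclib also inhibited CDK1, CDK2, CDK7 and CDK9, each with greater potency than AU2-94. RNA was taken after 24 h or 72 h from 3 biological replicates of each of the 6 treatments, so that 36 libraries formed 12 groups. The labels also carry a dose of 2 µM for vehicle. Wells for the later harvest were seeded more sparsely, so time and seeding density cannot be told apart.

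In the cell cycle, CDK4 and CDK6 with D-type cyclins begin to phosphorylate RB, which frees E2F transcription factors. E2F factors drive, among other genes, the cyclin E genes, CCNA2, CDK2 and CDC25A. Cyclin E with CDK2 then carries RB phosphorylation further and starts DNA replication, and cyclin A with CDK2 keeps S phase going. WEE1 and PKMYT1 place inhibitory phosphates on cyclin-dependent kinases, and CDC25A removes such phosphates. High cyclin E and CDK2 activity is known as a route around CDK4 and CDK6 inhibition.

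The labelled cell type was checked against its markers. The luminal prostate markers KLK3, FOLH1, TMPRSS2, HOXB13, KRT8 and KRT18 each had a normalised count of at least 4204.8 in all 36 libraries. KRT5, TP63, PTPRC and PECAM1, markers of basal epithelium, leukocytes and endothelium, each had a median of 0. Of the fibroblast collagens, COL3A1 ranged from 5.5 to 36.9 and COL1A1 from 194.2 to 643.9. The normalised counts of a library summed to between 20675156 and 22692555. These are bulk measurements, so fewer cells that express a gene and less RNA per cell cannot be told apart.

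The promoters of 3 of the 5 genes are shown because all 5 are known E2F-regulated genes, 4 of which fell in every treatment. The sequences are the last 120 bases before the start, 5′ to 3′ on the strand of the gene, from the RefSeq promoter table for GRCh38.p14. Matches to the E2F letters TTTCGCGC, TTTGGCGC or TTTCCCGC, to CCAAT and to the CHR letters TTTGAA or TTCGAA were searched on both strands in the 250 bases before the start, and matches are in capitals. The promoters of CDK2 and CCNE2 are named only.
CCNE1, chr19:29811871-29811990, plus strand: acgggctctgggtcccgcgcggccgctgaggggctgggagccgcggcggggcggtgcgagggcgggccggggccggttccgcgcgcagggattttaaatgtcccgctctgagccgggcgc
CCNA2, chr4:121823884-121824003, minus strand: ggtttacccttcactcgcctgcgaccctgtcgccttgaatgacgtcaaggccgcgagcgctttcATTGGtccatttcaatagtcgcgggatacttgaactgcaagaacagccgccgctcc
CDC25A, chr3:48188418-48188537, minus strand: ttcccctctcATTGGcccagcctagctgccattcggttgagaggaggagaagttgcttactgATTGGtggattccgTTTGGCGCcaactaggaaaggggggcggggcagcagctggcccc
CDC25A held 1 E2F match, 44 to 37 bases before its start, and CCAAT in reverse at 110 to 106 and 58 to 54 bases before it. CCNA2 held CCAAT in reverse 56 to 52 bases before its start. None of these letters occurred in the CCNE1 window. Of 35116 promoters of the same length, 2.3% held an E2F match, 32.0% a CCAAT match and 14.3% a CHR match. A match describes letters only, and its absence says nothing about binding.

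In GRCh38 with GENCODE release 44, CCNE1 (ENSG00000105173) lies at chr19:29811991-29824312 on the plus strand. CDK2 (ENSG00000123374) lies at chr12:55966781-55972789 on the plus strand. CCNE2 (ENSG00000175305) lies at chr8:94879770-94896678, CCNA2 (ENSG00000145386) at chr4:121816444-121823883 and CDC25A (ENSG00000164045) at chr3:48157146-48188417, all on the minus strand. CCNE2 shares 1629 exonic bases, 37.0% of its merged exons, with INTS8, a subunit gene of the Integrator complex on the opposite strand. CCNA2 shares 254 exonic bases, 9.2%, with EXOSC9, an RNA exosome gene on the opposite strand. CDK2 shares 565 exonic bases, 14.5%, with an opposite-strand lncRNA (ENSG00000258554), which had a mean normalised count of 0.09. It also shares 89 exonic bases, 2.3%, with PMEL, which had a mean of 36.87. The strand setting used to count the reads is not given in the sources used here, so reads in these shared stretches cannot be assigned with certainty to one gene of each pair.

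The first question was how each treatment changed the 5 transcripts relative to vehicle. CCNE2, CCNA2, CDK2 and CDC25A fell in all 5 treatments at both time points, whereas CCNE1 fell modestly in 4 treatments at 24 h and passed the test in none at 72 h. At 24 h CCNE2 and CCNA2 showed the deepest falls, to 0.0437 times the vehicle level with 2 µM atirmociclib and to 0.0705 times with 1 µM atirmociclib. At 72 h this did not hold in every treatment. With 1 µM AU2-94 CDC25A then fell most (log2 fold change -1.07, against -0.90 for CCNE2 and -0.87 for CCNA2). Log2 fold changes are differences of log2(normalised count + 1) from limma, and a gene was called at a Benjamini-Hochberg adjusted p of at most 0.05 over all genes tested.

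**Figure D1:**
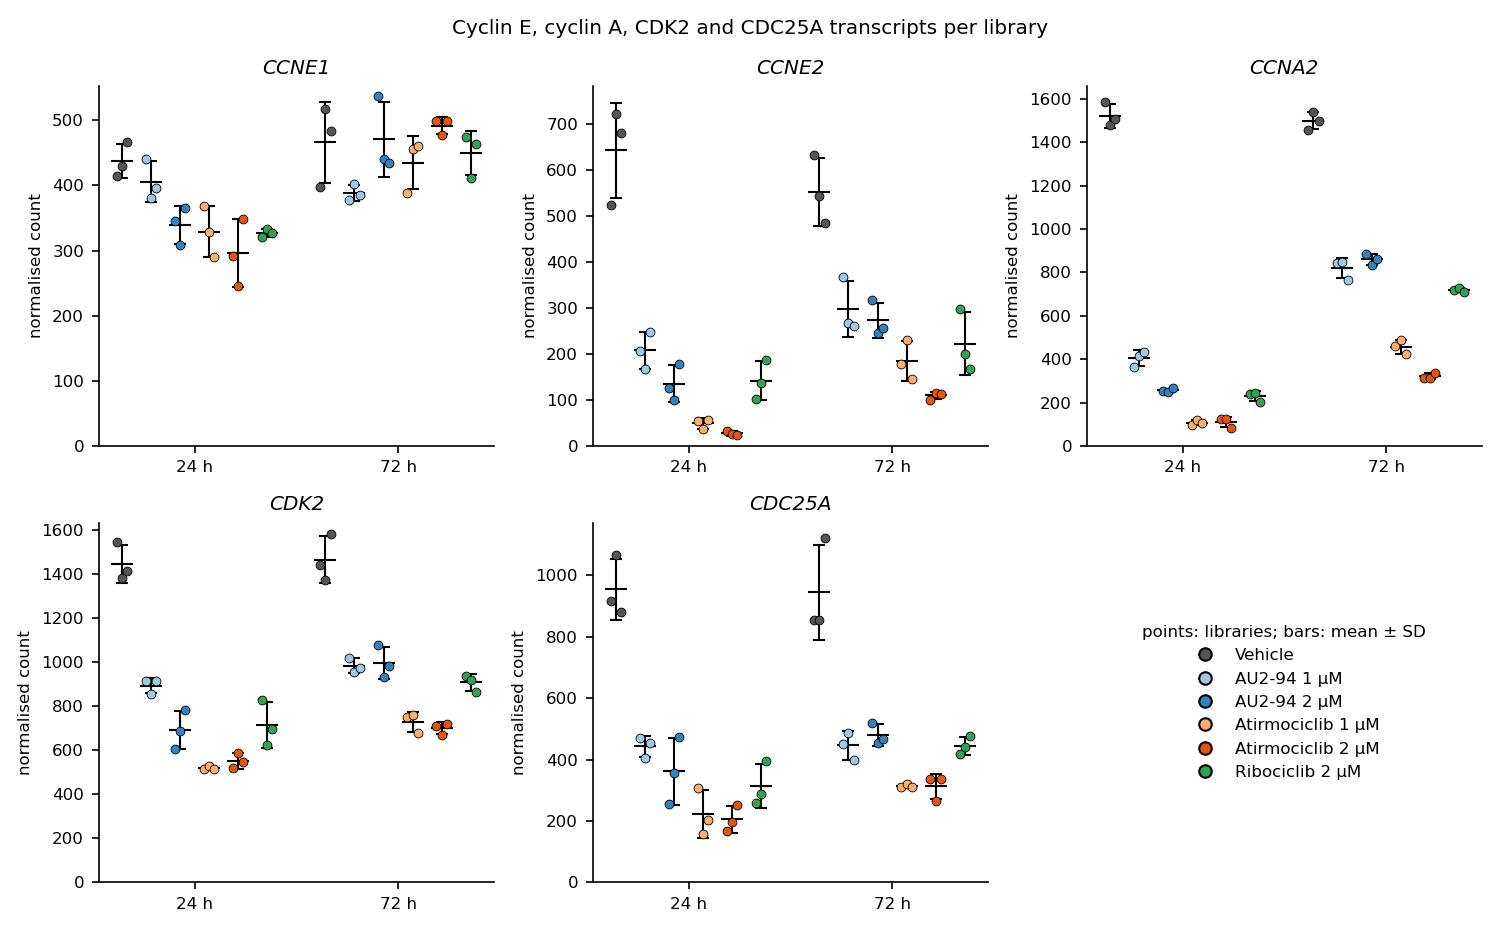
Normalised count of the 5 transcripts in each of the 36 libraries at 24 h and 72 h; points are libraries and bars are mean ± SD (n = 3). All 15 treated libraries of each time point lie below the 3 vehicle libraries for CCNE2, CCNA2, CDK2 and CDC25A, and the CCNE1 values overlap at both times.

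CDK2, the kinase, stood at 1545, 1383 and 1415 normalised counts in the 3 vehicle libraries at 24 h. It fell to 913, 855 and 914 with 1 µM AU2-94 and to 606, 689 and 782 with 2 µM AU2-94. Atirmociclib gave 515, 529 and 517 at 1 µM and 520, 589 and 547 at 2 µM, and ribociclib gave 829, 624 and 699. No treated library reached the lowest vehicle library at 24 h. The log2 fold changes were -0.69 ± 0.10 (SE) and -1.07 ± 0.10 for 1 and 2 µM AU2-94, -1.47 ± 0.10 and -1.39 ± 0.10 for atirmociclib, and -1.02 ± 0.10 for ribociclib. The largest adjusted p of these was 3.35e-05, for 1 µM AU2-94.

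At 72 h CDK2 was 1444, 1375 and 1582 in vehicle, 1021, 956 and 974 with 1 µM AU2-94, and 1078, 932 and 985 at 2 µM. Atirmociclib gave 751, 762 and 677 at 1 µM and 713, 671 and 720 at 2 µM, and ribociclib gave 940, 921 and 865. The groups again did not overlap with vehicle, and the atirmociclib libraries were the lowest of the 72 h harvest. Log2 fold changes ranged from -1.06 (2 µM atirmociclib) to -0.56 (2 µM AU2-94), each with an SE of 0.07. In the order of group means over both time points, the atirmociclib groups of 24 h were lowest (520 and 552) and the vehicle groups highest (1448 and 1467). The ranges of 2 µM AU2-94 at 24 h, 2 µM atirmociclib at 72 h, ribociclib at 24 h and 1 µM atirmociclib at 72 h (means of 693, 701, 717 and 730) overlapped from each group to the next.

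CCNE1 encodes cyclin E1. At 24 h it was 415, 430 and 466 in vehicle, 441, 381 and 396 with 1 µM AU2-94, and 345, 308 and 366 at 2 µM. Atirmociclib gave 369, 328 and 290 at 1 µM and 292, 246 and 349 at 2 µM, and ribociclib gave 321, 333 and 327. Of the 15 treated libraries 14 lay below every vehicle library, and 1 library of 1 µM AU2-94 overlapped. The change with 1 µM AU2-94 did not pass the test (log2 fold change -0.11, 95% interval -0.36 to 0.14, adjusted p = 0.549 by limma). The other log2 fold changes were -0.37 (adjusted p = 0.0248) for 2 µM AU2-94, -0.41 (0.0118) and -0.57 (0.000927) for 1 and 2 µM atirmociclib, and -0.42 (0.0112) for ribociclib, each with an SE of 0.12.

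These CCNE1 calls were the least stable among the comparisons with vehicle. Under quantile normalisation the call was lost for 2 µM AU2-94 (adjusted p = 0.0746), 1 µM atirmociclib (0.0579) and ribociclib (0.0506). Over the 17 alternatives tried, the adjusted p ranged from 0.013 to 0.108 for 2 µM AU2-94, from 0.00484 to 0.0662 for 1 µM atirmociclib and from 0.00458 to 0.0506 for ribociclib. Single libraries also decided them: without vehicle replicate 3 the adjusted p was 0.0926, 0.0517 and 0.0506 in that order, without vehicle replicate 2 or AU2-94 replicate 2 it was 0.051 and 0.108 for 2 µM AU2-94, and without atirmociclib replicate 3 it was 0.0662 for 1 µM atirmociclib. The fall with 2 µM atirmociclib passed in all 17, with adjusted p from 0.000148 to 0.00907.

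At 72 h CCNE1 was 397, 518 and 484 in vehicle, 378, 402 and 386 with 1 µM AU2-94, and 538, 441 and 435 at 2 µM. Atirmociclib gave 389, 456 and 461 at 1 µM and 499, 477 and 499 at 2 µM, and ribociclib gave 475, 411 and 463. Treated and vehicle libraries overlapped, with 3 of 15 treated libraries below and 1 above every vehicle library. The log2 fold changes ran from -0.25 (95% interval -0.48 to -0.03, 1 µM AU2-94, adjusted p = 0.0772) to 0.09 (-0.14 to 0.31, 2 µM atirmociclib, adjusted p = 0.555). Without vehicle replicate 1, the lowest of its group, the value for 1 µM AU2-94 was -0.36 and passed the test (limma, adjusted p = 0.0159). In the order of group means CCNE1 was lowest with 2 µM atirmociclib at 24 h (296) and highest with 2 µM atirmociclib at 72 h (492). In that order 1 pair of neighbours did not overlap, 2 µM AU2-94 at 24 h (339) and 1 µM AU2-94 at 72 h (389).

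CCNE2, which encodes cyclin E2, started from 525, 722 and 682 in the vehicle libraries of 24 h. AU2-94 left 207, 168 and 248 at 1 µM and 125, 99.8 and 179 at 2 µM. With atirmociclib it was 54.8, 36.2 and 55.6 at 1 µM and 31.7, 26.8 and 22.8 at 2 µM, and with ribociclib 102, 138 and 186. All treated libraries lay far below vehicle, and the 6 atirmociclib libraries below all others. The mean fell from 643 ± 104 (SD, n = 3) to 27.1 ± 4.49 (n = 3) with 2 µM atirmociclib, a log2 fold change of -4.52 ± 0.25 (SE) and 0.0437 times the vehicle level (adjusted p = 6.23e-11). The other log2 fold changes at 24 h were -3.70 for 1 µM atirmociclib, -2.28 and -1.63 for 2 and 1 µM AU2-94, and -2.20 for ribociclib, each with an SE of 0.25 and an adjusted p of at most 6.97e-05.

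By 72 h CCNE2 was 632, 543 and 485 in vehicle, 368, 267 and 260 with 1 µM AU2-94, and 317, 245 and 256 at 2 µM. Atirmociclib gave 178, 231 and 145 at 1 µM and 101, 116 and 114 at 2 µM, and ribociclib gave 299, 199 and 168. The treated libraries stayed below vehicle, and those of 2 µM atirmociclib were lowest. Log2 fold changes were -0.90 and -1.02 for 1 and 2 µM AU2-94, -1.59 and -2.31 for atirmociclib, and -1.35 for ribociclib, with an SE of 0.20 (largest adjusted p = 0.0019). At the low end of the order of group means, 2 and 1 µM atirmociclib at 24 h (27.1 and 48.9) overlapped with no other group, and from 2 µM atirmociclib at 72 h (110) to 1 µM AU2-94 at 72 h (298) each group overlapped with the next.

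INTS8, which shares exonic bases with CCNE2, moved too. It fell at 24 h in all 5 treatments, with log2 fold changes of -0.66 (1 µM AU2-94) to -0.33 (ribociclib), and at 72 h with atirmociclib only, with values of -0.29 and -0.40. The 24 h call with ribociclib was lost without ribociclib replicate 1 (-0.30) or 3 (-0.27). For the other 3 treatments at 72 h its values were 0.00, 0.03 and -0.07 (adjusted p of at least 0.54). In the library with the lowest CCNE2, at 22.8, INTS8 stood at 1022, and at 72 h with 1 and 2 µM AU2-94 its values of 0.00 and 0.03 stood beside -0.90 and -1.02 for CCNE2. The part of the shared bases in the CCNE2 values was not tested.

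CCNA2, which encodes cyclin A2, was 1584, 1478 and 1505 in vehicle at 24 h. The cells treated with AU2-94 held 364, 416 and 433 at 1 µM and 253, 250 and 265 at 2 µM. Those given atirmociclib held 96.0, 121 and 104 at 1 µM and 125, 124 and 81.4 at 2 µM, and those given ribociclib 240, 245 and 202. The vehicle libraries agreed closely with each other, and the highest treated library, at 433, was far under the lowest vehicle library, at 1478. The log2 fold changes were -1.91 and -2.57 for 1 and 2 µM AU2-94, -3.83 and -3.80 for atirmociclib and -2.73 for ribociclib, each with an SE of 0.14. The mean of 107 with 1 µM atirmociclib was 0.0705 times that of vehicle (adjusted p = 2.83e-13).

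At 72 h CCNA2 was 1458, 1539 and 1499 in vehicle, 842, 849 and 767 with 1 µM AU2-94, and 885, 836 and 863 at 2 µM. Atirmociclib gave 460, 488 and 424 at 1 µM and 315, 314 and 338 at 2 µM, and ribociclib gave 719, 726 and 710. The vehicle mean was 1522 at 24 h and 1499 at 72 h, and every treated library was higher than those of the same treatment at 24 h while still below vehicle. The log2 fold changes were -0.87 and -0.80 for 1 and 2 µM AU2-94, -1.71 and -2.21 for atirmociclib and -1.06 for ribociclib, each with an SE of 0.07 (largest adjusted p = 7.36e-08). Of the 5 transcripts CCNA2 separated the groups most clearly, since 7 of the 11 neighbouring pairs in its order of group means did not overlap. EXOSC9, the gene on the opposite strand, fell as well, with log2 fold changes between -0.75 and -0.39 (24 h) and between -0.90 and -0.43 (72 h) and adjusted p of at most 0.00144. The part of the shared bases in the CCNA2 values was not tested.

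CDC25A, the activating phosphatase, was 915, 1066 and 881 in vehicle at 24 h, 469, 405 and 455 with 1 µM AU2-94, and 256, 356 and 474 at 2 µM. Atirmociclib gave 309, 157 and 203 at 1 µM and 168, 196 and 252 at 2 µM, and ribociclib gave 259, 287 and 396. Replicates of a treated group spread widely here, by up to an SD of 109 around 362 with 2 µM AU2-94, but none came near vehicle. The log2 fold changes were -1.10 and -1.44 for 1 and 2 µM AU2-94, -2.14 and -2.23 for atirmociclib and -1.62 for ribociclib, each with an SE of 0.23 (largest adjusted p = 0.00151).

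At 72 h CDC25A was 854, 856 and 1123 in vehicle, 452, 488 and 397 with 1 µM AU2-94, and 520, 453 and 466 at 2 µM. Atirmociclib gave 310, 321 and 310 at 1 µM and 337, 265 and 337 at 2 µM, and ribociclib gave 417, 440 and 476. All treated libraries were below vehicle, and only the step from 2 µM AU2-94 at 72 h (479) to vehicle (944) was without overlap in the order of group means. Log2 fold changes ran from -1.59 (2 µM atirmociclib) to -0.97 (2 µM AU2-94), each with an SE of 0.12 and an adjusted p of at most 5.54e-06.

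**Figure D2:**
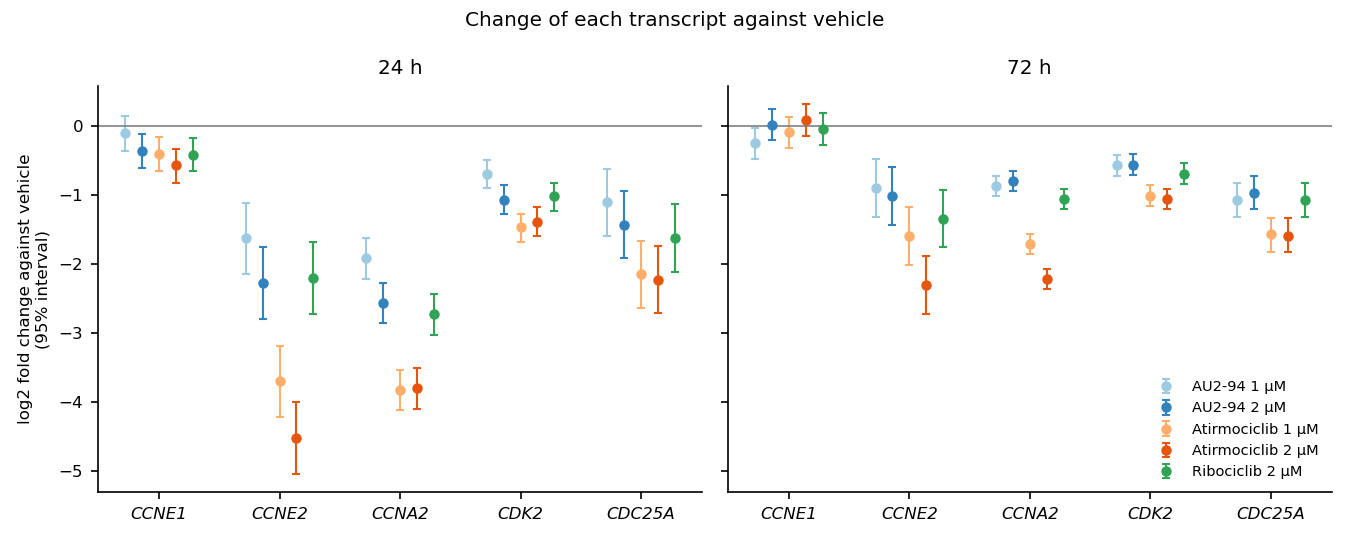
Log2 fold change of each transcript against the vehicle of its time point, with 95% intervals, for the 5 treatments at 24 h (left) and 72 h (right). At 24 h the values reach -4.52 for CCNE2 with 2 µM atirmociclib, and at 72 h all 5 CCNE1 intervals lie between -0.48 and 0.31.

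Set against all genes tested, the counts were as follows. At 24 h, 4 of the 5 genes were lower with 1 µM AU2-94, where 13.5% of 16137 genes were lower and 14.3% higher. All 5 were lower with 2 µM AU2-94 (14.9% of genes lower, 16.0% higher), 1 µM atirmociclib (15.4% and 16.6%), 2 µM atirmociclib (16.2% and 18.6%) and ribociclib (15.2% and 16.8%). At 72 h, 4 of 5 were lower in each treatment, beside 17.0% of 16341 genes lower and 15.4% higher with 1 µM AU2-94, 15.3% and 14.2% with 2 µM AU2-94, 19.8% and 20.0% with 1 µM atirmociclib, 19.6% and 20.9% with 2 µM atirmociclib, and 15.4% and 15.5% with ribociclib. None of the 5 was higher in any treatment, also at an unadjusted p under 0.05 in limma. When every library was scaled to the same total, the proportion of lower genes among those called moved at 24 h from 48.2% to 60.1% with 1 µM atirmociclib, from 46.5% to 62.1% at 2 µM and from 47.6% to 59.7% with ribociclib, and at 72 h from 48.5% to 60.7% with 2 µM atirmociclib. No called value of the 5 genes changed sign under any scaling.

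The balance of the cyclin E genes was compared within each library, where the scaling of the library cancels. In vehicle, CCNE1 and CCNE2 stood at 178 and 146 normalised counts per kilobase of merged exon at 24 h. The log2 ratio of CCNE1 to CCNE2 was 0.50, 0.09 and 0.29 in the 3 vehicle libraries at 24 h, and from 1.51 to 4.72 in the 15 treated libraries. Treated libraries were all above vehicle. It was 1.82 ± 0.27 (SD, n = 3) and 2.20 ± 0.30 with 1 and 2 µM AU2-94, 3.58 ± 0.39 and 4.24 ± 0.42 with atirmociclib, and 2.08 ± 0.42 with ribociclib. As a linear ratio, CCNE1 went from 1.22 times CCNE2 in vehicle to 18.84 times CCNE2 with 2 µM atirmociclib.

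At 72 h the log2 ratio was 0.17, 0.77 and 0.83 in vehicle and from 0.87 to 3.13 in the treated libraries, which again lay above all vehicle libraries. The group means were 1.24 ± 0.31 and 1.63 ± 0.05 with AU2-94, 2.09 ± 0.36 and 2.99 ± 0.14 with atirmociclib, and 1.89 ± 0.39 with ribociclib. Over the 15 treated against the 3 vehicle libraries, the ratio was higher by 2.49 at 24 h (two-sided exact permutation test, p = 0.00123, the smallest that the possible splits allow) and by 1.38 at 72 h (exact p = 0.00245). With permutations kept within a replicate number, the exact p was 0.00463 and 0.00926 over 216 arrangements. A single treatment of 3 libraries against 3 cannot go below an exact p of 0.1, the value that each treatment reached. The exons that CCNE2 shares with INTS8 enter this ratio.

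**Figure D3:**
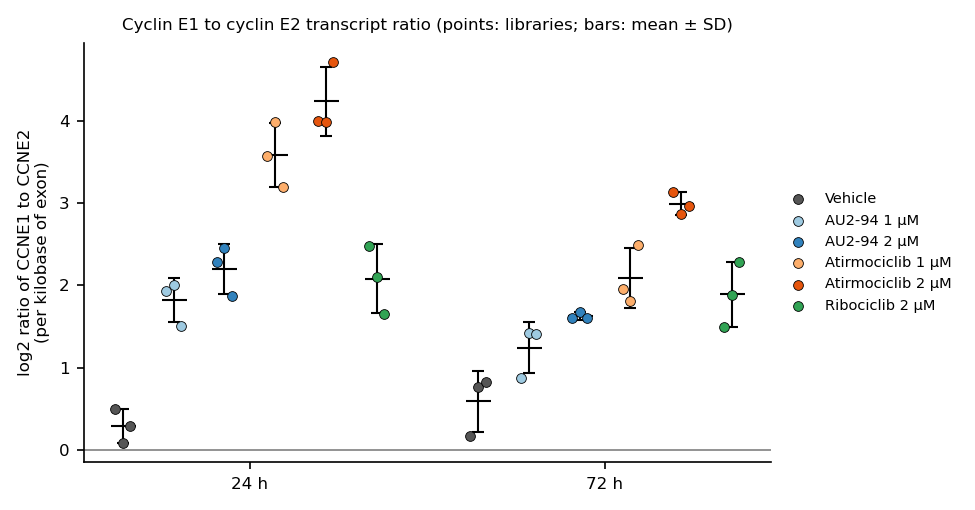
Log2 ratio of CCNE1 to CCNE2, both per kilobase of merged exon, in each library; points are libraries and bars are mean ± SD (n = 3). Vehicle lies between 0.09 and 0.83 over both time points, and every treated library lies above the vehicle libraries of its time point.

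Across all 5 genes the order of levels per kilobase changed as well. In vehicle at 24 h the order of mean normalised counts per kilobase was CCNA2 (554), CDK2 (373), CDC25A (230), CCNE1 (178) and CCNE2 (146). With 2 µM atirmociclib at 24 h it was CDK2 (142), CCNE1 (120), CDC25A (49.6), CCNA2 (40.1) and CCNE2 (6.16). CCNA2 was first in vehicle and the last but one with atirmociclib, and CCNE1 moved from the last but one to second. These places rest on merged exon lengths, and CCNE2 shares 37.0% of its merged exons with INTS8. The ranges of CDK2 (134 to 151) and CCNE1 (99.9 to 142) overlapped with atirmociclib, as did those of CDC25A (40.5 to 60.9) and CCNA2 (29.6 to 45.7).

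The compounds were then compared with each other at the same dose and time. Atirmociclib left less CCNE2, CCNA2, CDK2 and CDC25A RNA than AU2-94 at 1 and at 2 µM at both times, whereas CCNE1 did not pass the test in any of these comparisons. At 24 h the atirmociclib minus AU2-94 log2 differences at 1 µM were -2.07 ± 0.25 (SE) for CCNE2, -1.91 ± 0.14 for CCNA2, -0.78 ± 0.10 for CDK2 and -1.04 ± 0.23 for CDC25A (largest adjusted p = 0.0124), beside 4.64% of all genes called. At 2 µM they were -2.24, -1.24, -0.32 and -0.79 (adjusted p = 2.07e-05, 2.62e-05, 0.0462 and 0.0393), beside 9.44%. At 72 h the differences at 1 µM were -0.69, -0.84, -0.43 and -0.50 for the same genes (adjusted p = 0.0372 for CCNE2, at most 0.0104 for the others), beside 8.24%. At 2 µM they were -1.29, -1.42, -0.51 and -0.62 (adjusted p of at most 0.000832), beside 19.8%. With equal totals the proportion of lower genes among all those called moved from 45.7% to 65.5% at 2 µM at 24 h, from 44.9% to 76.0% at 1 µM at 72 h and from 44% to 74.7% at 2 µM at 72 h.

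Several of the smaller differences depended on single libraries and on the processing. The CDK2 difference between atirmociclib and AU2-94, both at 2 µM for 24 h, passed in 7 of 17 alternatives (adjusted p from 0.0137 to 0.185) and was lost with the replicate block (0.0621). It was also lost without AU2-94 replicate 2 or 3 and without any 1 of the 3 atirmociclib replicates (0.0511 to 0.185). Fits with no filter, quantile normalisation, only the 2 groups or no trend lost it too (limma, adjusted p from 0.0686 to 0.12). The CDC25A difference in the same comparison passed in 9 of 17 (0.00712 to 0.163) and was lost without AU2-94 replicate 2 or 3 or atirmociclib replicate 1 or 2 (0.0904 to 0.163). At 1 µM the CDC25A difference at 24 h was lost without AU2-94 replicate 1 or atirmociclib replicate 2 or 3 (0.0521, 0.0723 and 0.0504). That at 72 h was lost without AU2-94 replicate 2 (0.0598) and with all 36 libraries (0.115, both limma). The CCNE2 difference at 1 µM at 72 h passed in 8 of 17. It was lost without AU2-94 replicate 1 or 2 or atirmociclib replicate 1 or 3 (0.0577 to 0.178). It was also lost with no filter, quantile normalisation, only the 2 groups, all 36 libraries or no trend (limma, 0.0551 to 0.0756).

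Against 2 µM ribociclib, atirmociclib was lower at 24 h for CCNE2 (-2.31 ± 0.25), CCNA2 (-1.07 ± 0.14) and CDK2 (-0.37 ± 0.10, adjusted p = 0.0366), that is 3 of 5 genes beside 4.64% of all genes called. The CDK2 call was lost with the replicate block (0.0529) and without atirmociclib replicate 1 or 3 or ribociclib replicate 1 or 3 (0.0844 to 0.177). It was also lost with no filter (0.0569), only the 2 groups (0.119) or no trend (0.0665, all by limma). CDC25A did not pass at 24 h (-0.61, 95% interval -1.09 to -0.12, adjusted p = 0.164). At 72 h the differences were -0.96 for CCNE2, -1.15 for CCNA2, -0.37 for CDK2 and -0.51 for CDC25A (adjusted p of at most 0.00806), 4 of 5 genes beside 9.18%, of which 47.4% were lower, or 74.7% with equal totals. Without atirmociclib replicate 2 the CDC25A value was -0.40 (adjusted p = 0.0512), and with all 36 libraries it was not called (limma, adjusted p = 0.096).

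Ribociclib was also compared with AU2-94, both at 2 µM. At 24 h no gene of the 5 passed by limma, also at an unadjusted p under 0.05, beside 0.0372% of all genes called. The 95% intervals of the ribociclib minus AU2-94 difference were -0.45 to 0.59 for CCNE2, -0.46 to 0.13 for CCNA2, -0.16 to 0.25 for CDK2, -0.67 to 0.31 for CDC25A and -0.30 to 0.20 for CCNE1. With 3 libraries a group, differences within these intervals remain compatible with the values. At 72 h CCNA2 was lower with ribociclib (-0.26, 95% interval -0.40 to -0.12, adjusted p = 0.0394), 1 of 5 genes beside 3.34%, of which 41.4% were lower, 54.0% with quantile normalisation and 66.1% with equal totals. That call was lost with the replicate block (0.0524) and in every fit that left out 1 of the 6 libraries compared (0.0755 to 0.114). Its adjusted p lay between 0.0191 and 0.206 over the 17 alternatives, of which 8 passed.

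**Figure D4:**
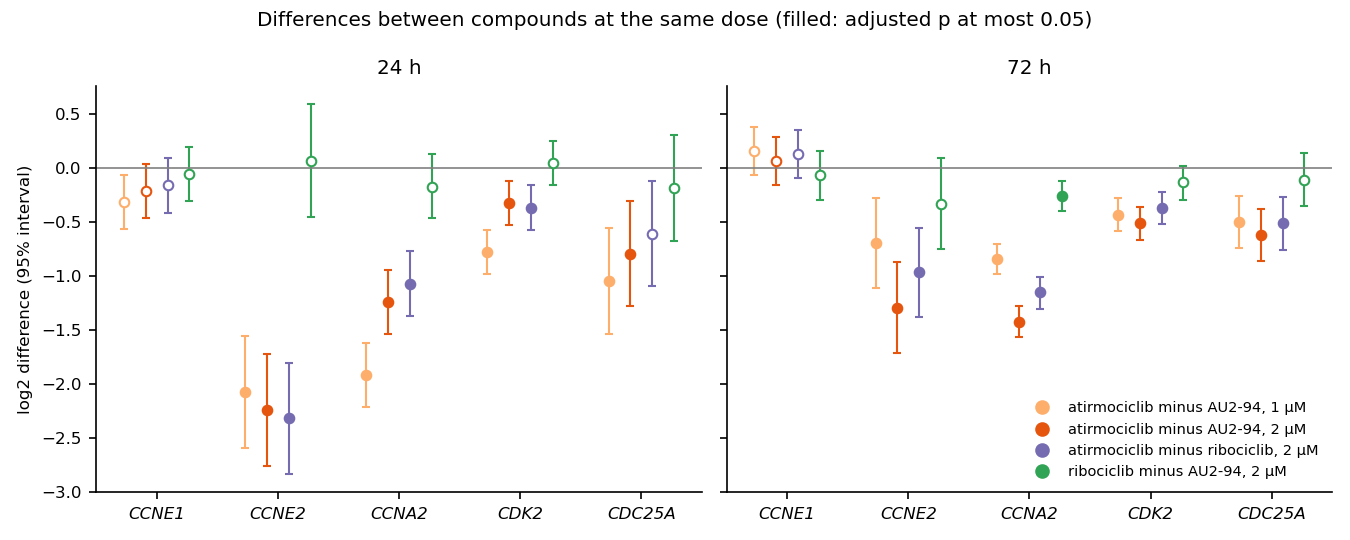
Log2 difference between compounds at the same dose, with 95% intervals, for each transcript at 24 h (left) and 72 h (right); filled points have an adjusted p of at most 0.05. Atirmociclib lies below AU2-94 and ribociclib for CCNE2 and CCNA2 at both times, from -2.31 to -0.69, and the CCNE1 differences lie between -0.31 and 0.16.

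Between 1 and 2 µM of the same compound, CCNA2 with atirmociclib at 72 h was the 1 result among these genes that passed the test. With AU2-94 at 24 h none of the 5 passed, beside 0.409% of all genes called, although 4 had an unadjusted p under 0.05. CCNA2 was closest, at -0.65 ± 0.14 (adjusted p = 0.0504, from 0.000691 to 0.261 over the alternatives, of which 6 of 17 passed), and CDK2, at -0.38, passed without AU2-94 replicate 3 of the 2 µM group (0.0445). At 72 h none of the 16341 genes passed with AU2-94 (limma, 0% called, 732 at an unadjusted p under 0.05, 1 of them CCNE1, at 0.27 with a 95% interval of 0.05 to 0.49), and the interval for CCNA2 was -0.07 to 0.21. With atirmociclib at 24 h none of the 5 passed beside 0.0124% of all genes, 1 at an unadjusted p under 0.05, which was CCNE2 (-0.81, 95% interval -1.33 to -0.30, adjusted p = 0.354). At 72 h CCNA2 was lower at 2 than at 1 µM of atirmociclib (-0.50 ± 0.07, adjusted p = 0.000936), 1 of 5 genes beside 2.19% (42.7% of them lower, 58.1% with quantile normalisation and 69.0% with equal totals), and CCNE2 was not called (-0.72 ± 0.20, adjusted p = 0.0696) except with the replicate block (0.0428).

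The effects were next compared between the time points, as the log2 fold change at 72 h minus that at 24 h. CCNA2 was less reduced at 72 h in all 5 treatments, CCNE2 in 3, CDK2 in 2 and CCNE1 in 1 (from -0.57 to 0.09), and CDC25A passed in none. For CCNA2 the effect changed by 1.04 ± 0.16 (SE) with 1 µM AU2-94, by 1.77 at 2 µM, by 2.11 and 1.59 with atirmociclib, and by 1.67 with ribociclib (largest adjusted p = 1.02e-05). CCNE2 changed by 2.11 ± 0.33 and 2.21 ± 0.33 with 1 and 2 µM atirmociclib and by 1.26 ± 0.33 with 2 µM AU2-94. The CCNE2 values with 1 µM AU2-94 (0.73, adjusted p = 0.117) and ribociclib (0.86, adjusted p = 0.0661) did not pass, although that of ribociclib passed without ribociclib replicate 3 of either time or vehicle replicate 1 of 24 h (0.0251 to 0.0459). CDK2 changed by 0.51 ± 0.12 with 2 µM AU2-94 and by 0.47 ± 0.12 with 1 µM atirmociclib, and CCNE1 by 0.66 ± 0.16 with 2 µM atirmociclib. The CDK2 values with 2 µM atirmociclib and ribociclib (0.33 each, adjusted p = 0.052) passed in 3 and 7 of 21 alternatives, and those of CDC25A ran from 0.03 to 0.64 (lowest adjusted p = 0.0972, 0.0206 without atirmociclib replicate 1 of 24 h at 1 µM and 0.0443 without replicate 3 of 24 h at 2 µM).

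Counted per treatment, 1, 3, 3, 3 and 1 of the 5 genes changed their effect with 1 and 2 µM AU2-94, 1 and 2 µM atirmociclib, and ribociclib, beside 21.6%, 18.5%, 21.9%, 21.6% and 20.2% of 16850 genes. These contrasts share the vehicle libraries. In vehicle itself none of the 5 differed between 72 h and 24 h by limma, also at an unadjusted p under 0.05, beside 7.50% of all genes called. The vehicle differences ran from -0.21 (95% interval -0.69 to 0.27, CCNE2) to 0.09 (-0.14 to 0.32, CCNE1).

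Other genes around CDK2 (activators, inhibitors, partners, turnover factors and substrates) were described from a list of 36, of which 35 passed the filter on low values. The exception, CCNA1, had a mean normalised count of 0.156. Between 14 and 19 of the 35 were lower and 3 or 4 higher per treatment at 24 h, and 16 to 20 were lower and 2 or 3 higher at 72 h. As shares of the list, 40.0% to 54.3% were lower and 8.57% to 11.4% higher at 24 h, where 13.5% to 16.2% of all genes tested were lower and 14.3% to 18.6% higher. At 72 h the shares were 45.7% to 57.1% lower and 5.71% to 8.57% higher, against 15.3% to 19.8% and 14.2% to 20.9% of all genes. The list held a larger share of lower calls and a smaller share of higher calls than all genes did. It was chosen with earlier results of these data known, so these shares are a description only. The median log2 fold change of the list ran from -0.36 to -0.15 over the 10 comparisons with vehicle, where that of all genes tested ran from -0.01 to 0.01.

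The inhibitory kinases of the list, PKMYT1 and WEE1, fell as CDK2 did. PKMYT1 fell in all 10 comparisons with vehicle, with log2 fold changes between -3.52 and -1.65 (24 h) and between -1.27 and -0.56 (72 h). With 2 µM atirmociclib at 24 h its mean was 48.9 normalised counts against 558 in vehicle. WEE1 fell in all 10 as well, with values between -1.84 and -0.92 (24 h) and between -1.28 and -0.46 (72 h). Both thus fell in the same treatments as CDC25A, which opposes them.

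The CDK-activating kinase, made of CDK7, cyclin H (CCNH) and MNAT1, took another course. CDK7 was higher in all 5 treatments at 24 h, by 0.34 to 0.65, and in 3 at 72 h. With 2 µM atirmociclib at 72 h it passed as higher under quantile normalisation (0.39), only the 2 groups or all 36 libraries (0.33 each). With 2 µM AU2-94 at 24 h its call was lost without AU2-94 replicate 3 or vehicle replicate 2 (adjusted p by limma of 0.1 and 0.104) or with only the 2 groups (0.0536), and at 72 h without replicate 1 of 1 µM AU2-94 (0.0671) or replicate 3 of 1 µM atirmociclib (0.0623). CCNH was higher in 3 treatments at 24 h, with values between 0.08 and 0.23, and passed in none at 72 h, with values between -0.13 and 0.00. Its call with 1 µM atirmociclib (0.13, adjusted p by limma of 0.0486) was lost under equal totals (0.286), without a filter, without the trend, with quantile normalisation and with only the 2 groups. It was also lost without atirmociclib replicate 1 (0.0717) or 2 (0.24) or vehicle replicate 1 (0.134), 2 (0.0656) or 3 (0.0993). Its call with ribociclib was lost under equal totals (adjusted p by limma of 0.149) and without ribociclib replicate 2 (0.0827) or vehicle replicate 1 (0.0708) or 3 (0.0515). At 72 h CCNH passed as lower with ribociclib under equal totals (-0.14) and without vehicle replicate 1 (-0.17). With ribociclib it also passed as lower with a mean of at least 100, the replicate block or all 36 libraries (-0.13 each). With 1 µM atirmociclib at 72 h CCNH passed as lower under equal totals (-0.13). MNAT1 was lower in 3 treatments at 72 h and had values of -0.04 to 0.08 at 24 h, none of which passed. All 3 of its calls were lost without vehicle replicate 2, at -0.25 (1 µM AU2-94), -0.24 (2 µM AU2-94) and -0.24 (1 µM atirmociclib). Each was also lost without 1 library of its own treatment, namely replicate 3 of 1 µM AU2-94 (-0.33), replicate 2 of 2 µM AU2-94 (-0.32) and replicate 2 of 1 µM atirmociclib (-0.29). With equal totals MNAT1 passed in all 5 treatments at 72 h, and without vehicle replicate 1 it passed with 2 µM atirmociclib (-0.35) and ribociclib (-0.39) too. With ribociclib it also passed with a mean of at least 100 or all 36 libraries (-0.28 each). With 2 µM atirmociclib it passed without atirmociclib replicate 1 (-0.30).

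Among the CDK inhibitor genes, CDKN1A (p21) was lower in 4 treatments at 24 h and in all 5 at 72 h, with its lowest value, -0.94, with 1 µM atirmociclib at 72 h. The 24 h calls with 2 µM AU2-94 and 1 µM atirmociclib, both at -0.27, were lost without any 1 of the 3 vehicle replicates (adjusted p by limma of 0.053 to 0.0965), without a filter and without the trend. The first was also lost with quantile normalisation and without AU2-94 replicate 2 (-0.30) or 3 (-0.17). The second was lost without atirmociclib replicate 2 (-0.20) or 3 (-0.27). With 2 µM atirmociclib at 24 h CDKN1A passed as lower under equal totals (-0.26). Its vehicle mean was 2460 at 24 h and 2940 at 72 h. CDKN1B (p27) passed in none at 24 h (-0.13 to 0.11) and was lower at 72 h with 2 µM atirmociclib (-0.20) and ribociclib (-0.18). The first of these calls was lost without atirmociclib replicate 3 (adjusted p by limma of 0.065) or vehicle replicate 2 (0.0632). The second was lost with quantile normalisation (0.0529), with only the 2 groups (0.0791), and without ribociclib replicate 1 (0.0614) or 3 (0.069) or vehicle replicate 2 (0.123) or 3 (0.0604). CDKN1B also passed as higher with 1 µM AU2-94 at 72 h under quantile normalisation (0.18). With 2 µM atirmociclib at 24 h it passed as lower under equal totals (-0.21) and without atirmociclib replicate 1 (-0.20). CDKN1C (p57) passed in none of the 10, with values of -0.19 to 1.00 and a mean normalised count of 26.4 over all libraries. With only the 2 groups it passed as higher with 2 µM AU2-94 at 24 h (1.00, limma, adjusted p = 0.0141).

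The list's largest mean changes over the 10 comparisons were falls in FBXO5 (EMI1, which restrains the anaphase-promoting complex), PKMYT1, CHEK1 (a checkpoint kinase that restrains CDC25A), CCNF (cyclin F) and ORC1 (a subunit of the origin recognition complex). Each fell in all 10. FBXO5 went from 625 to 72.7 normalised counts at 24 h with 1 µM atirmociclib, a log2 fold change of -3.09 ± 0.12 (SE). CHEK1 ranged from -3.12 with 2 µM atirmociclib at 24 h to -0.60 with 1 µM AU2-94 at 72 h. CCNF ranged from -2.05 to -0.43 and ORC1 from -2.03 to -0.58. The most positive mean changes were those of RBL2 (p130), CDK7 and CDKN1C. RBL2, an RB family member that holds E2F genes down in resting cells, rose in all 10, by 0.34 to 0.58 with adjusted p of at most 0.000269, from 2280 in vehicle to 3360 with ribociclib at 24 h.

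The genes whose group means followed each of the 5 most closely were named over the 12 groups, among 12474 genes whose mean normalised count was 50 or more. CCNA2 was closest to MKI67, CDCA3 and CENPU (Pearson r = 0.996 each). CDK2 was closest to PCNA (0.994), TMPO-AS1 and LMNB1 (0.992 each), CDC25A to FANCE (0.992), H2BC12 and PAQR4 (0.988 each), and CCNE2 to ZNF367 (0.987), H2BC11 (0.985) and H2BC17 (0.984). CCNE1 was closest to LINC00899 (0.944), NFATC2IP (0.942) and XPR1 (0.932). Among the 5 genes themselves, r ran from 0.934 to 0.988 between CCNE2, CCNA2, CDK2 and CDC25A and from 0.632 to 0.773 between CCNE1 and each of them. These are descriptions across group means that share the vehicle and treatment groups.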

How the data were processed

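The data were RNA sequencing libraries of LNCaP cells, grouped by their labels into 12 groups with 3 biological replicates each (36 in all). The authors made total RNA libraries, ran nf-core/rnaseq with alignment to GRCh38 (STAR 2.6.1d per the labels) and applied DESeq2. The deposited values are normalised counts, here called a signal because they are not whole numbers, and count models were therefore not applied. The counter, annotation release and strand setting are not given in the sources used here. Library totals were between 20675156 and 22692555. Low values are the least precise.

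A gene was tested if it had 10 or more normalised counts in 3 or more fitted libraries. Values were taken as log2(normalised count + 1) and fitted with limma 3.58.1 under R 4.3.3 (lmFit, contrasts.fit, and eBayes with a trend). One fit held all 6 groups of a harvest time, and a fit of all 36 libraries served the changes between times. Adjustment was by Benjamini-Hochberg over the genes tested in a contrast. The 1 added before the log understates changes of genes with low counts. The ratio of CCNE1 to CCNE2 was tested by exact permutation. Symbols, positions and merged exon lengths came from GENCODE release 44.

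The 5 genes and the pathway list were chosen with earlier results of these data known. The text names these 5 genes, the 5 largest and 3 most positive mean changes of the list, its CDK inhibitors, CDK-activating kinase and inhibitory kinases, and the 3 genes of highest correlation with each of the 5. The limma fits reported had no block. A batch field in the labels repeats the replicate number, so an alternative with a block took libraries of equal number as pairs. Their deviations from the group means correlated by 0.002 on average at 24 h (45 pairs, -0.09 to 0.11) and by -0.002 at 72 h (-0.08 to 0.05). Alternatives changed the pseudocount, the filter, the scaling, the block on replicate number, which libraries were fitted, the trend, and the libraries left out singly. The steps were tested on simulated data. Another luminal marker is not reported here.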

Additional observations from a re-analysis of the deposited data

Results flagged for a closer look

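The change of a treatment's effect between 24 h and 72 h passed the test of that difference (limma, adjusted p of at most 0.05, log2 effect at 72 h minus log2 effect at 24 h) in 11 cases, all with a positive sign. CCNA2 changed by 1.04 with 1 µM AU2-94, 1.77 with 2 µM AU2-94, 2.11 with 1 µM atirmociclib, 1.59 with 2 µM atirmociclib and 1.67 with 2 µM ribociclib. CCNE2 changed by 1.26 with 2 µM AU2-94, 2.11 with 1 µM atirmociclib and 2.21 with 2 µM atirmociclib. CDK2 changed by 0.51 with 2 µM AU2-94 and 0.47 with 1 µM atirmociclib, and CCNE1 by 0.66 with 2 µM atirmociclib. Of all 16850 genes, 18.5% to 21.9% passed the same test per treatment, in either direction. With 1 µM AU2-94 and with ribociclib only CCNA2 passed, that is 1 of the 5 genes, beside 21.6% and 20.2% of all genes. In these 2 treatments the share of the 5 genes was thus close to that of all genes. The cases are not independent, since these contrasts share the vehicle libraries. In every one of the 11 cases the change passed in all 21 alternatives. Seeding density also differed between the time points, so its part cannot be told apart from that of time.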

How the results depend on the processing

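Of 850 values of a gene against vehicle under an alternative, 840 kept their side of the threshold, and the 10 others were all for CCNE1. Of 1620 values in the other comparisons 1545 kept their side. No value that passed the test in the reported fit or in the alternative reversed its direction. Values that did not pass could change sign, as CCNE1 with 2 µM AU2-94 at 72 h did (0.02, and -0.09 to 0.1 over the alternatives). The ratio of CCNE1 to CCNE2 stayed past the test in all 42 alternatives. The CCNE1 falls at 24 h were lost under quantile normalisation, at -0.28 with 2 µM AU2-94, -0.30 with 1 µM atirmociclib and -0.31 with ribociclib. Causes were not tested. Of the other genes named, FBXO5, PKMYT1, CHEK1, CCNF, ORC1, WEE1, RBL2 and EXOSC9 kept their calls in all 170 values each. The call changed in 20 values for CCNH, 16 for CDKN1A, 13 for MNAT1, 11 for CDKN1B, 8 for CDK7, 2 for INTS8 and 1 of 160 for CDKN1C. No call of these genes reversed. Of the counts over the list, 1 moved by over 1.5 times, from 2 higher genes to 1 with 2 µM AU2-94 at 72 h without vehicle replicate 3.

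The number of the 5 genes past the adjusted p moved by over 1.5 times as follows, and otherwise by 1 gene at most. For 2 against 1 µM AU2-94 at 24 h it went from 0 to 1 with a pseudocount of 8, a mean of at least 100, quantile normalisation, equal totals or median ratio scaling, and to 2 with all 36 libraries. For atirmociclib against AU2-94, 2 µM at 24 h, it went from 4 to 2 without a filter, with quantile normalisation, with only the 2 groups compared or without the trend, and for 1 µM at 72 h from 4 to 2 with all 36 libraries. For the change of the ribociclib effect it went from 1 to 2 with a mean of at least 100 or equal totals. For ribociclib against AU2-94 at 72 h it went from 1 to 0 with only the 2 groups or all 36 libraries. With the replicate block, which uses the pairing by number, that count was 0, the count for the atirmociclib doses at 72 h went from 1 to 2, and CDK2 lost its calls for atirmociclib against AU2-94 and ribociclib, 2 µM at 24 h. The block changed no other call of the 5 genes.

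When single libraries were left out, the log2 fold changes of CCNE1 at 24 h ranged from -0.42 to -0.30 with 2 µM AU2-94. They ranged from -0.50 to -0.33 with 1 µM atirmociclib and from -0.45 to -0.37 with ribociclib. With 1 µM AU2-94 at 72 h the range was -0.36 to -0.17. The counts of the 5 genes past the test ranged from 0 to 1 (AU2-94 doses at 24 h), 1 to 3 (change of the ribociclib effect), 2 to 4 (atirmociclib against AU2-94, 1 µM at 72 h and 2 µM at 24 h) and 0 to 0 (ribociclib against AU2-94 at 72 h).

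Counts over all genes moved by over 1.5 times in comparisons between compounds or doses only. At 24 h, ribociclib against AU2-94 had 6 genes and from 0 (quantile normalisation or no trend) to 89 (all 36 libraries), with 1 under the replicate block. The AU2-94 doses had 66 and from 6 (only the 2 groups) to 134 (all 36 libraries), and the atirmociclib doses 2 and from 0 (1 library left out) to 13 (all 36 libraries). With only the 2 groups, atirmociclib against AU2-94 had 468 in place of 749 (1 µM) and 613 in place of 1523 (2 µM), and against ribociclib 415 in place of 749. At 72 h, the atirmociclib doses had 358 and from 109 (1 library left out) to 546 (all 36 libraries), and the AU2-94 doses 0 and at most 1. Ribociclib against AU2-94 had 92 in place of 546 and atirmociclib against ribociclib 771 in place of 1500 with only the 2 groups, and atirmociclib against AU2-94 at 1 µM had 897 to 992 in place of 1346 without single libraries.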
